A study of Sus scrofa with 18 samples.

Results

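H3K4me3 and H3K27ac were compared with each other in the longitudinal muscle layer of the pregnant pig uterus (GD15M_LM). The comparison rested on both peak lists of this layer, 31910 H3K4me3 peaks and 57010 H3K27ac peaks, which came from 4 of the 18 libraries and made up 88920 of the 320764 peaks of the 6 lists analysed. A peak belonged to both marks where it shared at least 1 bp with a peak of the other list, and otherwise to H3K4me3 only or H3K27ac only. All samples were myometrium of Yorkshire gilts taken from the mesometrial side on day 15, from longitudinal muscle in pregnancy (GD15M_LM), circular muscle in pregnancy (GD15M_CM) or circular muscle in the estrous cycle (CD15M_CM), with 2 gilts per group. Each mark was profiled by CUT&Tag, in which a protein A-Tn5 fusion cuts the DNA next to a bound antibody, with an IgG control. The authors pooled the reads of both gilts before calling peaks, so every value below is 1 value per list. There is no spread between gilts and no test between marks was possible. The intervals beside shares are 95% Wilson intervals, which account for the number of peaks or genes counted and for no other error. Peaks had no read counts in the lists, so their depth is unknown from them.

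H3K4me3 is laid down around the start sites of genes that are being transcribed or are poised for it, while H3K27ac marks both active promoters and active enhancers. A peak with both marks is therefore the usual form of an active promoter, and H3K27ac without H3K4me3 is the usual form of a distal enhancer. Very long H3K4me3 domains are known from genes that define a cell's identity. The myometrium consists mostly of smooth muscle cells, among which lie blood vessels, fibroblasts and immune cells.

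The tissue label was checked against fixed marker lists. Of 16 smooth muscle markers, 15 had a peak of both marks within 3 kb of an end of the gene, and the other, CALD1, had peaks of both marks inside the gene. Of 13 striated muscle markers 2 had both marks, and MYOD1, MYOG, MYF5 and MYF6 had neither. In bulk tissue, fewer cells of a type and less of a mark per cell cannot be told apart.

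Of the H3K4me3 peaks, 22215 (69.6%, 95% interval 69.1 to 70.1) overlapped an H3K27ac peak and 9695 did not. Of the H3K27ac peaks, 26263 (46.1%, 95% interval 45.7 to 46.5) overlapped an H3K4me3 peak and 30747 did not. The order of both shares depended on the lists' sizes. With the same number of peaks taken from each list it turned, with 58.3% of H3K4me3 peaks and 62.3% of H3K27ac peaks shared, and with only peaks of a fold enrichment of at least 5 and a −log10 p of at least 10 the values were 50.3% and 77.1%. By length, the marks covered nearly the same amount of the genome, 52.2 Mb for H3K4me3 and 53.0 Mb for H3K27ac, and 30.2 Mb carried both, which is 57.9% of the H3K4me3 and 57.0% of the H3K27ac sequence.

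Peaks that carried both marks were longer and stronger than those with 1 mark. The median H3K4me3 peak was 1774 bp long with a fold enrichment of 11.8 over IgG where H3K27ac was present, and 391 bp with a fold enrichment of 3.84 where it was not. The median H3K27ac peak was 1044 bp with a fold enrichment of 4.51 where H3K4me3 was present, and 436 bp with a fold enrichment of 3.48 where it was not. In fold enrichment and length the gap was thus wider for H3K4me3, whose fold enrichments also spanned a wider range. By rank of fold enrichment within each list the gaps were more alike. The median percentiles with and without the other mark were 64.7 and 27.8 for H3K4me3, and 68.7 and 37.8 for H3K27ac.

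The share of peaks with the other mark changed with the rank of the peak. Among H3K4me3 peaks, it was 48.1% in the lowest decile by fold enrichment, 42.7% in the second, 42.6% in the third, 54.2% in the fifth, 91.3% in the seventh and 99.9% in the highest, where 3185 of 3188 peaks carried H3K27ac. Among H3K27ac peaks it was 27.3% in the lowest decile, 34.6% in the fifth and 91.4% in the highest, where 5198 of 5688 peaks carried H3K4me3. A strong H3K4me3 peak without H3K27ac was therefore rare, and a strong H3K27ac peak without H3K4me3 was less so. By length, 39.5% of the 10165 H3K4me3 peaks below 500 bp carried H3K27ac, against 97.3% of the 7507 peaks of 2000 to 4000 bp and all 262 peaks of at least 8000 bp.

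**Figure D1:**
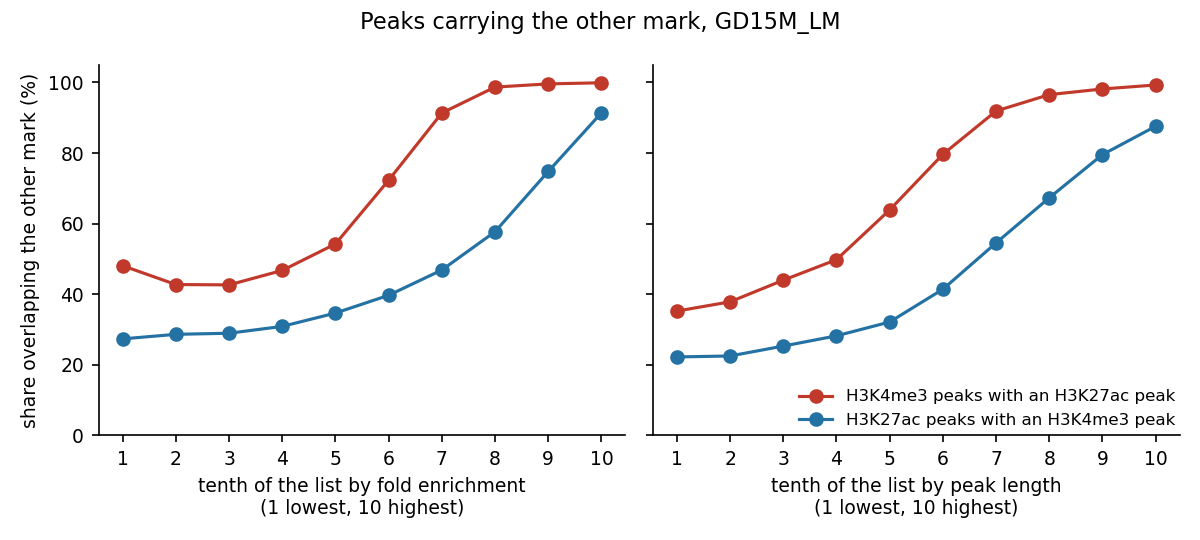
Share of peaks (y axis, %) that overlap a peak of the other mark, by decile of the list ranked by fold enrichment (left) or peak length (right), for H3K4me3 peaks (red) and H3K27ac peaks (blue) of GD15M_LM. By fold enrichment the H3K4me3 curve dips from 48.1% to 42.6% in the third decile before it rises, and the shares reach 99.9% for H3K4me3 and 91.4% for H3K27ac in the highest decile by fold enrichment.

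Inside shared regions, H3K27ac was the shorter mark. Of the H3K4me3 peaks with H3K27ac, 70.5% were longer than every H3K27ac peak they overlapped. Of the H3K27ac peaks with H3K4me3, 18011 (68.6%) lay wholly inside H3K4me3, whereas 4686 H3K4me3 peaks (21.1%) lay wholly inside H3K27ac. The median share of a two-mark H3K4me3 peak covered by H3K27ac was 68.8%. Long H3K4me3 domains held several H3K27ac peaks: 18451 H3K4me3 peaks overlapped a single H3K27ac peak, 2836 overlapped 2, and 2 overlapped 10.

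The classes differed in their place relative to genes. Of the H3K4me3 peaks on the named chromosomes, 66.1% of those with H3K27ac and 65.5% (95% interval 64.5 to 66.4) of those without lay within 3 kb of an end of a RefSeq gene. Of the H3K27ac peaks, 69.0% of those with H3K4me3 lay in this window but only 16.3% (95% interval 15.9 to 16.7) of those without. Most H3K27ac only peaks were inside genes away from the ends (62.3%), and 21.4% were outside genes. The gene models gave no strand, so the window takes in both the start and the 3′ end of a gene. With a window of 1 kb the shares fell to 26.1% of H3K4me3 only peaks and 7.24% of H3K27ac only peaks.

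H3K4me3 only peaks mostly lay beside another marked region. The nearest H3K27ac peak was at a median distance of 1648.5 bp, and 76.8% had one within 5 kb. The nearest two-mark H3K4me3 peak was at a median of 1127 bp, with 47.0% closer than 1 kb. H3K27ac only peaks lay far from H3K4me3, at a median of 14096 bp, and 7.86% were closer than 1 kb. With peaks of the same mark less than 1 kb apart joined in both lists, 82.4% of H3K4me3 and 48.6% of H3K27ac peaks carried the other mark.

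Of the 19550 protein-coding genes on chromosomes 1 to 18, X and Y, 13019 (66.6%) had a peak of both marks within 3 kb of an end, 956 (4.89%) had H3K4me3 only, 496 (2.54%) had H3K27ac only and 5079 (26.0%) had neither. In 5425 long noncoding RNA genes these shares were 31.4% for both marks, 3.32% for H3K4me3 only and 8.44% for H3K27ac only, so here H3K27ac alone was the more frequent single mark. Where both marks were present, the highest peaks of a protein-coding gene had a median length of 2768 bp for H3K4me3 and 1424 bp for H3K27ac, and the H3K4me3 peak was the longer at 95.9% of genes.

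Most protein-coding genes longer than 6 kb had H3K4me3 at a single end (9429 of 15190). At 7473 of these, 79.3%, H3K27ac was at the same end only. It was at both ends of 12.6%, at neither end of 729, and at the opposite end only of 39 (0.414%).

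Genes with 1 mark had weak peaks. A percentile below ranks a peak among all peaks of the same list by fold enrichment, and the peak of highest percentile in the window stands for the gene. Genes with H3K4me3 only had a median percentile of 50.8, against 81.3 for the H3K4me3 peaks of genes with both marks, and genes with H3K27ac only had 34.7, against 83.9. The share of genes without H3K27ac was 50.3% of the 324 genes with an H3K4me3 percentile of 20 to 40, 34.2% of the 1371 genes at 40 to 60, 3.54% of the 5106 genes at 60 to 80 and 0.444% of the 3605 genes above 90. The share without H3K4me3 went from 22.8% of the 649 genes with an H3K27ac percentile below 20 to 0.178% of the 4498 genes above 90.

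At the 13019 genes with both marks, the ranks of the marks went together. Spearman's rho across genes was 0.62 for fold enrichment and 0.66 for peak length. These are descriptions, since neighbouring genes share peaks and are not independent. Both fold enrichments are also ratios over the IgG control of the same tissue, and the effect of this shared control on rho was not tested. Within a mark, the rho of fold enrichment with peak length was 0.44 for H3K4me3 and 0.37 for H3K27ac, so length and strength were partly separate measures. The highest peaks of both marks overlapped each other at 89.7% of genes, and the percentiles lay within 20 points of each other at 10263 genes (78.8%).

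**Figure D2:**
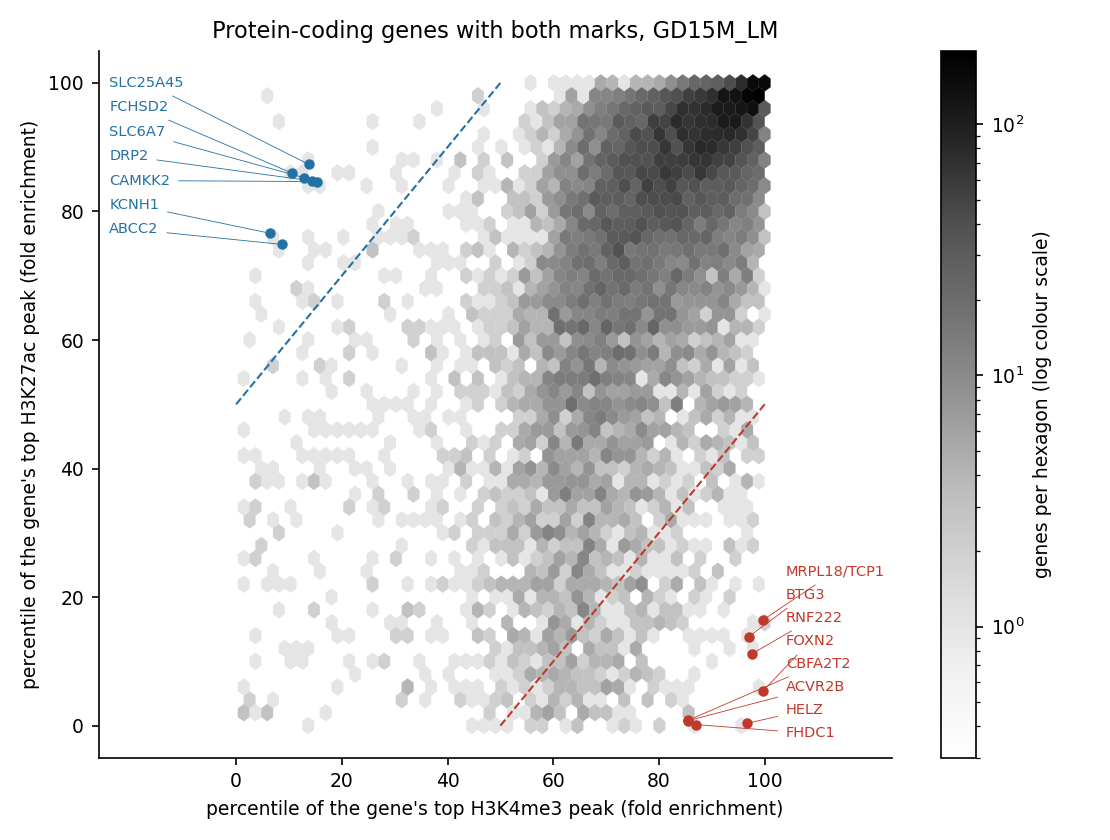
Percentile by fold enrichment of the top H3K4me3 peak (x axis) and top H3K27ac peak (y axis) of each of the 13019 protein-coding genes with both marks in GD15M_LM. Grey hexagons give the number of genes on a log colour scale, dashed lines mark a difference of 50 points, and genes far apart in each direction are named: 411 genes lie beyond the red line and 43 beyond the blue line.

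H3K4me3 ranked at least 50 points above H3K27ac at 411 genes (3.16% of those with both marks), and H3K27ac ranked at least 50 points above H3K4me3 at 43 genes (0.330%). Both counts depended on the ranking. With percentiles taken only among the peaks of these genes they were 472 and 366, by −log10 p 151 and 37, and with equal numbers of peaks 1277 and 15. At the 411 genes the median H3K4me3 peak had a fold enrichment of 17.7 and a length of 2429 bp. The H3K27ac peak had a fold enrichment of 2.84, below the list's median of 3.79, but a length of 1025 bp, above the list's median of 606 bp. At 365 of them (88.8%) it overlapped the H3K4me3 peak.

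The 8 largest differences in favour of H3K4me3 were at HELZ, FOXN2, FHDC1, RNF222, ACVR2B, CBFA2T2, the neighbouring pair MRPL18 and TCP1, and BTG3. HELZ, an RNA helicase gene on chromosome 12, had an H3K4me3 peak of 3628 bp (13653947 to 13657574, Sscrofa11.1) across its upper end with a fold enrichment of 32.3 at percentile 96.6. The H3K27ac peak inside it was 2846 bp long with a fold enrichment of 2.18, at percentile 0.354. FOXN2, a forkhead transcription factor gene, had percentiles of 99.8 for H3K4me3 and 5.46 for H3K27ac, and ACVR2B, an activin receptor gene, 85.5 and 0.775. The MRPL18 and TCP1 genes, which encode a mitochondrial ribosomal protein and a subunit of the chaperonin that folds actin and tubulin, shared an H3K4me3 peak at percentile 99.6 and an H3K27ac peak at 16.4. At BTG3, an antiproliferative gene, the values were 97.0 and 13.9. At 7 of these 8 items both peaks overlapped, and the H3K27ac peaks there were 1198 to 2846 bp long with −log10 p values of 3.19 to 7.10. At RNF222 they lay apart, and its H3K4me3 peak overlapped a different H3K27ac peak, so its values do not compare the marks at one site.

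The same genes were looked up in the circular muscle lists, whose values had no part in their choice. HELZ had an H3K27ac percentile of 90.1 in GD15M_CM and 86.9 in CD15M_CM, FOXN2 74.5 and 85.0, ACVR2B 78.7 and 91.7, BTG3 94.6 and 86.6, FHDC1 74.0 and 67.1, and the MRPL18 and TCP1 pair 83.9 and 74.4. CBFA2T2 was lower, at 60.3 and 48.8, and its GD15M_CM peak lay at the opposite end of the gene from its GD15M_LM peaks. RNF222 had 97.1 in GD15M_CM and 30.7 in CD15M_CM, where H3K4me3 stood at 89.1. Of the 411 genes, 377 had both marks in GD15M_CM and 14 of these again had H3K4me3 at least 50 points higher, and in CD15M_CM the counts were 388 and 35. These shares were 3.71% and 9.02%, whereas over all genes with both marks 344 of 12962 met this difference in GD15M_CM and 468 of 13365 in CD15M_CM. Their median H3K27ac percentile was 13.8 in GD15M_LM, 79.7 in GD15M_CM and 72.9 in CD15M_CM, while that of H3K4me3 was 75.9, 78.6 and 78.5. The GD15M_LM values follow from the choice of the genes by their ranks in that list. Ranks chosen as extreme in 1 list are expected to be less extreme in any other. Whether a low H3K27ac rank belongs to the tissue, to the libraries or to this choice cannot be told apart with 1 list per group.

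The largest differences in favour of H3K27ac included those at FCHSD2, SLC25A45, SLC6A7, DRP2, KCNH1, CAMKK2 and ABCC2. FCHSD2, whose product takes part in membrane trafficking, had an H3K27ac peak of 836 bp with a fold enrichment of 5.78 at percentile 86.0, and an H3K4me3 peak of 351 bp with a fold enrichment of 3.10 at percentile 10.5. DRP2, which encodes a relative of dystrophin, had 84.8 for H3K27ac and 14.3 for H3K4me3, and KCNH1, a potassium channel gene, 76.6 and 6.43. CAMKK2, the calcium/calmodulin-dependent kinase kinase 2 gene that the study discusses, had 84.7 and 15.3 in peaks that did not overlap. Its window held an H3K4me3 peak of 242 bp, while 3 H3K4me3 and 11 H3K27ac peaks lay in the gene. At the 43 genes the median H3K4me3 peak was 423 bp long and the median H3K27ac peak 1106 bp, and the peaks overlapped at 27 of them. In the circular muscle lists 22 and 31 of the 43 genes had both marks, and the median difference kept its direction, at −35.5 points in GD15M_CM and −23.0 points in CD15M_CM.

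Differences of length named other genes. H3K4me3 was far longer in rank at HOXB8 (7018 bp against 215 bp for H3K27ac), HOXB7 (5556 and 215 bp), HOXA5 (4651 and 209 bp), ARAP1 (4365 and 221 bp) and NADK2 (3594 and 202 bp). The first 3 are homeobox genes that specify position along the body axis, and HOXB8 and HOXB7 shared the H3K27ac peak, which did not overlap the H3K4me3 peak of HOXB7. At ARAP1 the peaks lay at opposite ends of the gene, and its H3K4me3 peak met a different H3K27ac peak. In the circular muscle lists the H3K27ac percentiles of HOXA5 were 96.8 and 89.9, against 28.2 in GD15M_LM. H3K27ac was far longer in rank at HRCT1 (9063 bp against 280 bp), TNS1 (2261 and 233 bp), PRR15L (2437 and 253 bp) and RSPH9 (3624 and 336 bp). At TNS1 these peaks lay at opposite ends of the gene. TNS1 encodes tensin 1, which links actin to focal adhesions, and its gene held 69 H3K27ac and 22 H3K4me3 peaks.

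The strongest H3K4me3 genes without H3K27ac in the window were HIGD1B, NPAS3, TMEM130, BCL7B, SP3, C12H17orf98, TRIM11 and BTN1A1, with H3K4me3 percentiles of 96.6 to 99.4. All 8 peaks reached an H3K27ac peak that lay outside the 3 kb, so these were not H3K4me3 only peaks. This held for 52 of the 956 genes. Among the other 904, a set formed after the values were seen, VCAM1 ranked first. VCAM1, the adhesion molecule of activated endothelium and stroma, had an H3K4me3 peak of 3696 bp (chromosome 4, 117508162 to 117511857) at percentile 84.6 that overlapped no H3K27ac peak. It had an H3K27ac percentile of 62.6 in CD15M_CM and no H3K27ac peak in the window in GD15M_CM.

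The strongest H3K27ac genes without H3K4me3 in the window included MYOM3, LPIN1, ANKDD1A, CEP295NL, PLPP1, RNF112 and SMIM2, with H3K27ac percentiles of 88.6 to 98.9. MYOM3, a myomesin gene of the sarcomere, had an H3K27ac peak of 1786 bp (chromosome 6, 81856802 to 81858587) with a fold enrichment of 9.17, against percentiles of 21.3 in GD15M_CM and 52.3 in CD15M_CM. LPIN1, a phosphatidate phosphatase gene, had percentile 94.0, and PLPP1, a phospholipid phosphatase gene, 88.9. Of the 496 genes with H3K27ac only, 121 had an H3K4me3 peak deeper inside the gene. MYOM3, LPIN1, ANKDD1A and PLPP1 were of this kind. The H3K27ac peaks of LPIN1 and CEP295NL met an H3K4me3 peak outside the window.

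**Figure D3:**
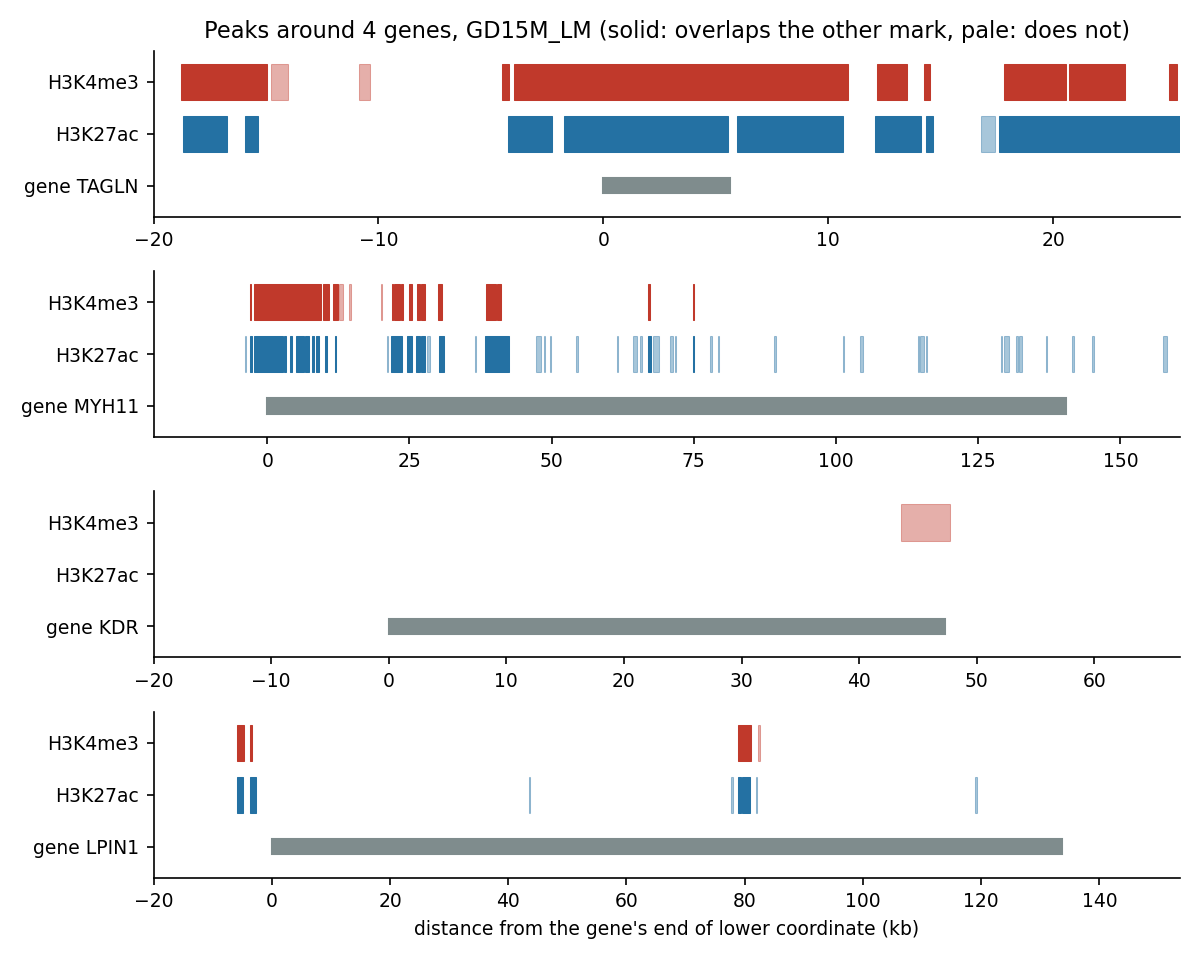
Peaks of GD15M_LM around TAGLN, MYH11, KDR and LPIN1, drawn as distance in kb (x axis) from the end of the gene with the lower coordinate; the gene is the grey bar, H3K4me3 peaks are red and H3K27ac peaks blue, solid where they overlap the other mark and pale where they do not. TAGLN lies inside a 14880 bp H3K4me3 peak with H3K27ac, MYH11 holds many H3K27ac peaks without H3K4me3, KDR has 1 H3K4me3 peak and no H3K27ac peak, and LPIN1 has both marks beyond its lower end and in its middle.

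Genes of smooth muscle carried both marks, and their H3K4me3 peaks were long. The highest H3K4me3 peak of the 15 markers with a peak had a median length of 11893 bp, against 2666 bp over all 13975 protein-coding genes with H3K4me3. A peak of at least 8 kb was present at 13 of the 15, against 3.16% of all genes with H3K4me3. The longest were at SMTN (smoothelin, 16009 bp), TAGLN (transgelin, 14880 bp), TPM2 (tropomyosin 2, 14592 bp) and CSRP1 (13287 bp). By fold enrichment the markers were less apart from other genes, with a median percentile of 90.9 for H3K4me3 (all genes, 79.9) and 84.5 for H3K27ac (all genes, 83.0). H3K27ac ranked lower at PDLIM7, a PDZ and LIM domain protein of actin fibres (95.03 for H3K4me3 and 54.8 for H3K27ac), and MYH11, the smooth muscle myosin heavy chain (96.7 and 68.0). It ranked higher at ACTG2, enteric actin (75.3 and 95.1), and CNN1, calponin (71.4 and 87.7).

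MYH11 shows how both marks can differ over 1 gene. Its H3K4me3 peak at the lower end was 11893 bp long (chromosome 3, 7000285 to 7012177) with a fold enrichment of 32.4, and it met several H3K27ac peaks. The strongest of these in the window was 416 bp long with a fold enrichment of 4.47, and another, nearly as strong at 4.17, reached from outside the gene to 2.793 kb inside it. In all, 43 H3K27ac peaks and 17 H3K4me3 peaks lay in the gene, and 26 of the H3K27ac peaks met no H3K4me3 peak. In GD15M_CM and CD15M_CM the H3K27ac percentile of MYH11 was 96.6 and 94.3.

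Regulators of the smooth muscle program had both marks at 9 of 10 placed genes. SRF, the serum response factor, had percentiles of 98.8 for H3K4me3 and 95.4 for H3K27ac, and its coactivator MYOCD 88.6 and 96.9. KLF4, which represses smooth muscle genes, had 95.8 and 97.5. MEF2A was lower for both, at 14.3 and 48.8, and MEF2C had its peaks only inside the gene, 7 of H3K4me3 and 5 of H3K27ac.

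The phospholipase C, inositol trisphosphate and calmodulin genes, which raise and read cellular calcium, had both marks at 15 of 15. Several of them, such as PLCB3, PLCB4 and ITPR1, are discussed by the study from these samples and are no independent evidence. Their median percentiles were 86.1 for H3K4me3 and 89.99 for H3K27ac. PLCB1, a phospholipase C gene, was at 98.1 and 95.5, and PPP1R14A, the inhibitor of myosin phosphatase, at 88.2 and 98.4 with an H3K4me3 peak of 9598 bp. PLCB3 (87.1 and 90.7), PLCB4 (77.2 and 84.5) and the receptor gene ITPR1 (82.6 and 73.2) had both marks near the same rank. The peaks of PLCB3 did not overlap and lay at opposite ends of the gene. CAMKK1 had 71.3 and 96.3, and its H3K27ac peak of 7835 bp was longer than its H3K4me3 peak of 3897 bp.

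Of 24 receptors for contractile and relaxing signals 15 had both marks (62.5%, beside 66.6% of all protein-coding genes) and 5 had neither (20.8%, beside 26.0%). H3K4me3 only was found at 3 (12.5%, beside 4.89%) and H3K27ac only at 1 (4.17%, beside 2.54%). The shares with both marks or neither were near those of all genes, and the single-mark shares rest on few genes. Strong both-mark genes were PTGER3, a prostaglandin E2 receptor (98.1 for H3K4me3 and 99.2 for H3K27ac), ADRA2A, an α2-adrenergic receptor (96.7 and 98.4), and EDNRA, the endothelin receptor A (90.6 and 93.6). The muscarinic receptor genes CHRM2 and CHRM3 had 86.7 and 74.2, and 84.6 and 98.3. OXTR, the oxytocin receptor, stood at 65.8 and 64.6. ADRA1A, ADRA2C and ADRB1 had H3K4me3 at percentiles of 58.2, 49.5 and 21.7 without H3K27ac, and HTR2B had H3K27ac alone at 61.9. ADRA1B, ADRB3, HTR4, HRH1 and NMUR2 had no peak in the window. Inside the gene, however, HRH1 held 22 H3K27ac and 2 H3K4me3 peaks, and ADRA1B 3 and 1. ADRA2A was at 30.5 for H3K27ac in GD15M_CM and 89.5 in CD15M_CM.

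Of 7 steroid receptor genes 5 had both marks (71.4%, near the 66.6% of all genes). ESR1, the estrogen receptor α, ranked higher for H3K27ac (83.6) than for H3K4me3 (59.4). PGR, the progesterone receptor, had both at a similar rank (84.9 and 86.2). ESR2 had H3K27ac only, at 56.8. NR3C1, the glucocorticoid receptor, had no peak in the window but both marks inside the gene.

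Patterning genes of the uterine mesenchyme held the longest domains. The longest H3K4me3 peak of the list, 44510 bp on chromosome 18 (45379335 to 45423844), overlapped HOXA3, HOXA6, HOXA7, HOXA9, HOXA10 and HOXA11, had a fold enrichment of 34.5, met 10 H3K27ac peaks and was covered to 89.0% by them. HOXA9, HOXA10, HOXA11 and HOXA13 had this peak in their windows and had H3K27ac percentiles of 99.9, 99.8, 99.5 and 97.8. The next longest H3K4me3 peak, 25074 bp on chromosome 7 (83069859 to 83094932), lay over NR2F2, which encodes COUP-TFII, and was covered to 83.3%. Of 28 genes in the list 20 had both marks (71.4%, near the 66.6% of all genes), with median percentiles of 91.7 for H3K4me3 and 98.4 for H3K27ac, and 14 of the 23 with H3K4me3 had a peak of at least 8 kb, beside 3.16% of all genes with H3K4me3. MEIS2 (20895 bp), MEIS1 (16337 bp), TBX2 (15614 bp) and EMX2 (12979 bp) were among these. HOXC9, WNT4 and ISL1 had H3K4me3 only, WNT7A had H3K27ac only, and HOXD13, HOXC12, HOXC13 and TBX4 had neither.

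The other longest peaks also carried both marks. On chromosome 2, over IL17B and PCYOX1L, an H3K4me3 peak of 22297 bp (150533485 to 150555781) met an H3K27ac peak of 22264 bp (150533179 to 150555442). The H3K4me3 peak was covered to 99.0% by 2 H3K27ac peaks, and the H3K27ac peak of 22264 bp to 98.6% by 1 H3K4me3 peak. H3K4me3 peaks of 22042 bp over PPP1R14B, VEGFB and their neighbours and of 21771 bp over DVL2 and GABARAP were covered to 61.2% and 56.3%. The longest H3K27ac peak, 24491 bp over ST5 on chromosome 9 (679628 to 704118), met 11 H3K4me3 peaks that covered only 38.5% of it. Peaks of 20491 bp over ARHGEF17, which activates the RhoA pathway, and 19354 bp on chromosome 5 were covered to 88.9% and 91.2%.

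Immediate early genes (19 of 19), oxidative phosphorylation genes (23 of 23) and cytosolic ribosomal protein genes (43 of 44) nearly all had both marks, as did 17 of 18 extracellular matrix genes. Of the immediate early genes, JUND had the longest H3K4me3 peak (17141 bp), and EGR1 had the largest difference, with 69.3 for H3K4me3 and 31.3 for H3K27ac. EGR1 was at 98.1 for H3K27ac in GD15M_CM and 35.8 in CD15M_CM. At 33 of 43 ribosomal protein genes H3K27ac ranked above H3K4me3, with a median difference of −4.16 points (H3K4me3 minus H3K27ac), beside 6769 of 13019 genes and −0.41 points over all genes with both marks, and RPL34 (68.5 and 99.3) was farthest. The matrix genes LAMA4 and TNC ranked higher for H3K4me3 (91.1 against 64.3, and 73.8 against 49.8), SPARC for H3K27ac (88.3 and 98.8), with peaks that did not overlap at TNC and SPARC, and ITGB1, the common integrin β1 chain, was high for both (99.9 and 98.3).

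**Figure D4:**
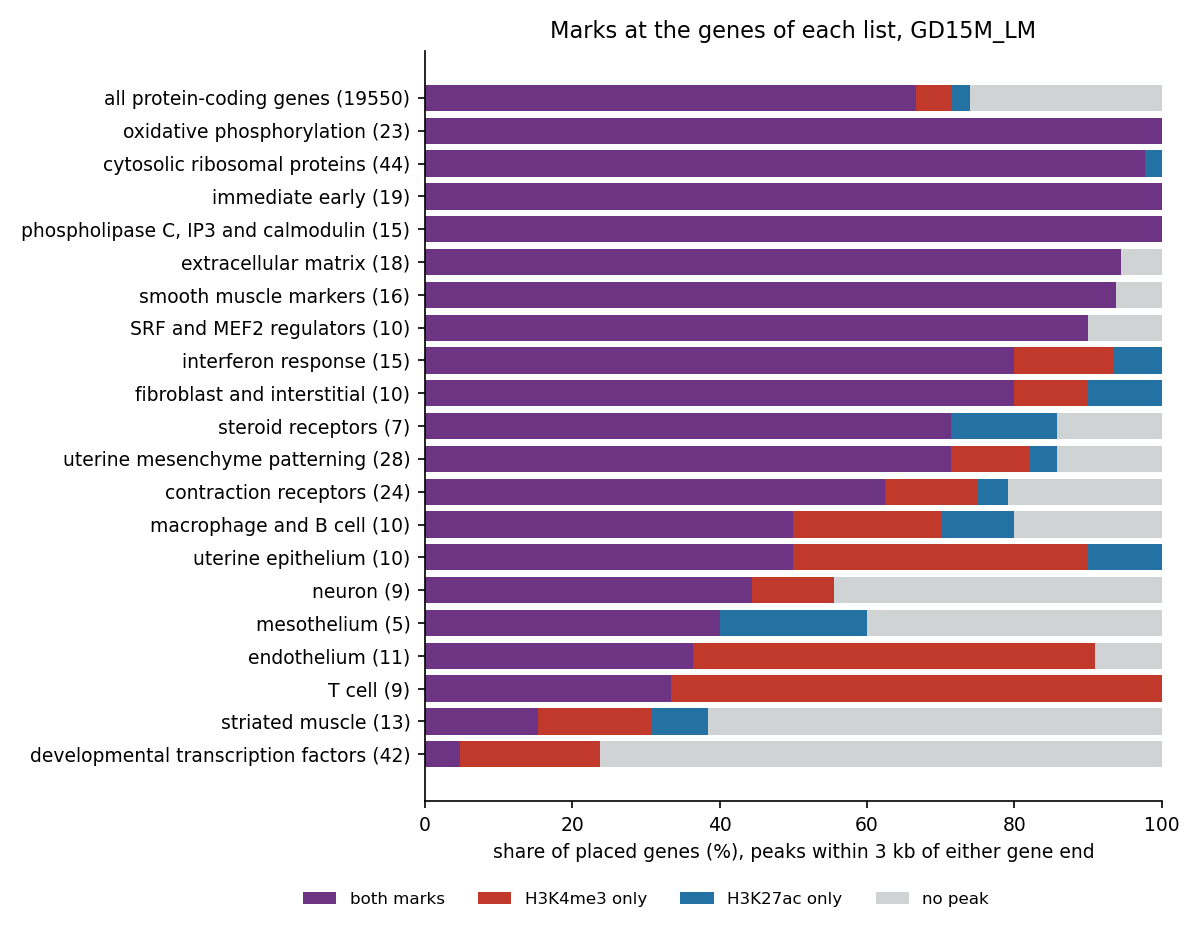
Share of the placed genes of each list (x axis, %) with both marks, H3K4me3 only, H3K27ac only or no peak within 3 kb of an end of the gene in GD15M_LM, with the number of placed genes in brackets. H3K4me3 alone takes 6 of 9 T cell genes and 6 of 11 endothelial genes, against 4.89% of all protein-coding genes.

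H3K4me3 without H3K27ac was frequent at marker genes of endothelium, T cells and uterine epithelium. It was found at 6 of 11 endothelial genes, 6 of 9 T cell genes and 4 of 10 uterine epithelial genes, beside the 4.89% of all protein-coding genes. It was less frequent at fibroblast and interstitial (1 of 10), neuronal (1 of 9), macrophage and B cell (2 of 10) and mesothelial genes (0 of 5). The endothelial genes with H3K4me3 only were TEK, KDR and FLT1, which encode receptors for angiopoietins and vascular endothelial growth factors, the transcription factor genes ERG and SOX17, and ROBO4. Their H3K4me3 percentiles were 59.1 to 64.6. KDR had an H3K4me3 peak of 4206 bp (chromosome 8, 41852653 to 41856858) with a fold enrichment of 10.9 and no H3K27ac peak in the gene. With the whole gene and 3 kb on each side as window, H3K4me3 only remained at 3 of 11 endothelial genes, since H3K27ac peaks lay inside TEK, FLT1 and ROBO4, and 4.37% of all genes. PECAM1, CDH5, VWF and SOX18 had both marks. The first 3 had H3K27ac percentiles of 28.7, 43.6 and 21.7 under H3K4me3 percentiles of 72.5, 61.9 and 57.3, while SOX18 had H3K27ac at 65.9, in a peak beside the H3K4me3 peak at 58.9. TIE1 had no peak in the window but held 1 H3K4me3 and 4 H3K27ac peaks inside the gene.

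The T cell genes with H3K4me3 only included CD3E, CD3D and CD3G, subunits of the T cell receptor complex, CD8A and CD2. The H3K4me3 percentiles of all 6 were 44.8 to 61.7, and CD3D and CD3G shared a peak of 5430 bp (chromosome 9, 45642142 to 45647571). LCK had both marks at 63.2 and 63.6, CD4 had 42.1 and 3.01, and CD5 21.4 and 36.3, but at none of these 3 genes did the peaks overlap, and those of LCK and CD4 lay at opposite ends of the gene. All 9 placed T cell genes thus had H3K4me3 in the window and 3 had H3K27ac there. CD8A, whose top H3K4me3 peak in the window was 240 bp long, held 7 H3K4me3 and 2 H3K27ac peaks inside the gene. With the whole gene and 3 kb on each side as window, 5 of 9 had H3K4me3 only and 4 had both marks. The study discusses CD3D, CD3E, CD8A and LCK from these samples, so the list is not independent of it. In GD15M_CM all 9 had H3K4me3 and 6 H3K27ac, and in CD15M_CM 8 and 2.

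The epithelial genes with H3K4me3 only were KRT18, KRT19, GRHL2 and FOXA2. EPCAM, KRT8, CDH1 and ESRP1 had both marks with H3K27ac at percentiles of 19.8, 42.1, 7.45 and 34.4 under H3K4me3 at 59.3, 59.0, 54.3 and 59.4. CLDN4, with H3K27ac at 92.3 in a peak that did not overlap its H3K4me3 peak, and ELF3, with H3K27ac only, were the exceptions. All 10 placed epithelial genes had both marks in GD15M_CM and in CD15M_CM, with median H3K27ac percentiles of 75.5 and 67.0, against 33.3 over the 6 with H3K27ac in GD15M_LM. How many epithelial cells each sample held was not tested.

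**Figure D5:**
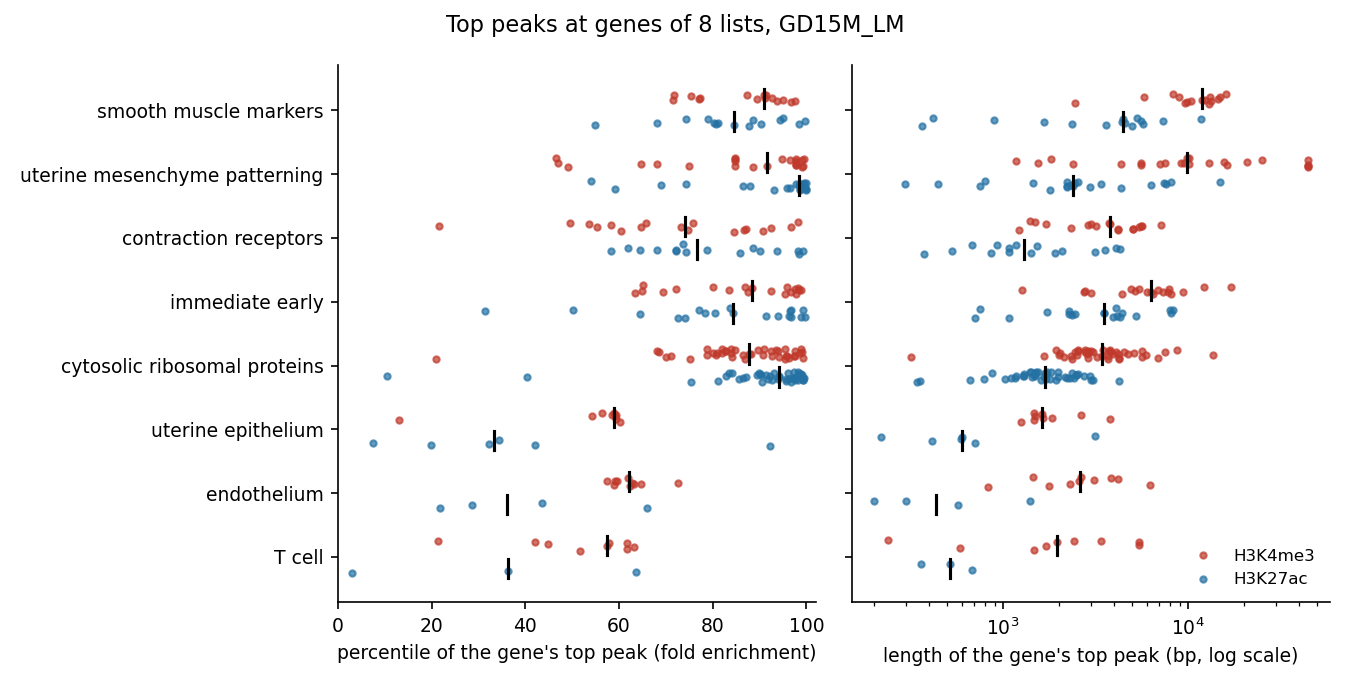
Percentile by fold enrichment (left) and length in bp on a log scale (right) of the top H3K4me3 peak (red) and top H3K27ac peak (blue) of each gene with a peak in 8 lists, GD15M_LM; black bars are medians. H3K4me3 peaks of smooth muscle and patterning genes reach 16009 and 44510 bp, and the median H3K4me3 percentiles of epithelial, endothelial and T cell genes are 59.0, 62.1 and 57.5.

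Other cell types had mixed patterns. Of 10 fibroblast and interstitial genes 8 had both marks, with H3K4me3 ranked well above H3K27ac at COL3A1 (94.5 and 51.2) and THY1 (77.1 and 39.5). The order was the opposite at DCN (84.0 and 94.2), COL1A1 (82.2 and 95.4) and PDGFRB (71.7 and 77.9). KIT had 66.7 and 31.3 in peaks at opposite ends of the gene, and LUM, the gene for lumican, had H3K4me3 of 6491 bp without H3K27ac. Of 10 macrophage and B cell genes 5 had both marks, with CD14 (65.7 and 39.1) and CD79A (87.1 and 75.1) higher for H3K4me3 and SPI1 (71.0 and 89.8) and CD68 (92.2 and 94.5) higher for H3K27ac. The peaks of CD68 did not overlap and lay on opposite sides of the gene. CSF1R had 54.1 and 18.4 in peaks at opposite ends of the gene, CD79B had H3K27ac only, CD163 and PAX5 had H3K4me3 only, and MS4A1 had no peak in the window. WT1, a gene of mesothelium and of uterine stroma, stood at 99.2 and 99.96 with peaks of 17045 and 12912 bp. Of the other placed mesothelial genes UPK3B had both marks (61.0 and 54.6), in peaks that did not overlap. LRRN4 had H3K27ac only (49.0), and CALB2, which held 1 H3K27ac peak inside the gene, and KRT5 had no peak in the window. Of 9 neuronal genes STMN2, GAP43, NEFL and NEFM had no peak in the window and UCHL1 had H3K4me3 only. Both marks were present at SYP (56.1 for H3K4me3 and 0.171 for H3K27ac), SNAP25 (56.1 and 17.9), RBFOX3 (26.0 and 73.6) and SYT1 (56.8 and 57.3), and the peaks did not overlap at SYP and SYT1. Of 42 developmental transcription factors of other lineages 32 had neither mark, 8 had H3K4me3 only and 2 (DLX5 and BARX1) had both.

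The interferon response genes, most of which the study chose on samples of this series and which are therefore no independent evidence, had both marks at 12 of 15. B2M had 94.5 and 99.7, IRF1 96.1 and 98.7, and GBP1 90.6 and 93.6. PSMB8 and TAP1 shared an H3K4me3 peak at 90.2 and had H3K27ac at 87.0 and 74.9, PSMB9 stood at 67.6 and 56.3, PSMB10 at 84.0 and 87.3, and STAT2 at 65.0 and 58.1. The H3K27ac peak of PSMB8 did not overlap its H3K4me3 peak. In the window, IRF8 (62.5) and CIITA (3.42), the regulator of class II antigen presentation, had H3K4me3 only, and NLRC5 H3K27ac only (13.1). CIITA also held 3 H3K27ac peaks inside the gene, and NLRC5 1 H3K4me3 peak. With the whole gene and 3 kb on each side as window, 14 of 15 had both marks. Of the class II genes, SLA-DMA stood at 63.8 and 55.3, SLA-DMB at 79.0 and 98.7, and SLA-DRB1 had H3K4me3 at 73.7 with no H3K27ac, against an H3K27ac percentile of 93.4 in GD15M_CM. SLA-6, a class I gene, was among the 411 genes, with 70.6 and 5.04, and the complement gene C3 had H3K4me3 only, at 42.2. Genes of the SLA region have near-identical copies, so reads may have been divided between them and these values are uncertain.

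H3K27ac only peaks were gathered in some genes, counted anywhere between the gene's ends, including near them. At least 1 H3K27ac only peak lay in 4888 protein-coding genes, and at least 10 lay in 504 genes, which held 32.1% of the H3K27ac only peaks on the named chromosomes. Of these 504 genes, 452 (89.7%) had both marks at an end, beside 66.6% of all protein-coding genes. These counts were not adjusted for gene length, and a longer gene has more room for peaks. Protein-coding genes with both marks had a median length of 25.3 kb, and those with neither 9.5 kb. In genes picked after their values were seen, the counts were highest in RAD51B (108 peaks in 709 kb), ZMIZ1 (91 in 239 kb), CUX1 (82 in 353 kb) and CACNA1C, the L-type calcium channel of smooth muscle (69 in 431 kb). GRK5, DIP2C, COL4A2 and KCNMA1, the large-conductance calcium-activated potassium channel, held 65, 64, 59 and 58. Per 10 kb, ZMIZ1 (3.81) and COL4A2 (3.58) were the densest of the 15 genes with most peaks, and KCNMA1 (0.762) the sparsest.

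The strongest peaks of each class were as follows. The H3K4me3 peaks of highest fold enrichment with H3K27ac lay at PPP4R3A (53.2), at YY1 and DEGS2 (51.9) and at RSBN1 and PTPN22 (51.9), and the H3K27ac peaks of highest fold enrichment with H3K4me3 at AIMP1 and TBCK (14.0), ZER1 (13.8) and near FOXJ2 (13.7). Without H3K27ac, the strongest H3K4me3 peaks had fold enrichments of 30.0 at 2 unnamed genes on chromosome 6 (61809552 to 61811523), 27.7 near PIK3C2B on chromosome 9 (65164250 to 65165568) and 26.1 at ATP23 on chromosome 5 (23227541 to 23228697). Without H3K4me3, the strongest H3K27ac peak was 596 bp long with a fold enrichment of 12.7 on chromosome 12 (57291492 to 57292087), 29203 bp from the nearest protein-coding gene, and its −log10 p of 51.1 was the highest of all H3K27ac peaks. The next lay 331198 bp from PRKX on X (10.6) and 18022 bp from GJA5 on chromosome 4 (10.2).

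The regions of each class were looked up in the other lists, which came from other libraries. Of the H3K4me3 only peaks of GD15M_LM, 25.7% met an H3K27ac peak in GD15M_CM and 24.1% in CD15M_CM, against 90.4% and 95.2% of the two-mark H3K4me3 peaks. H3K4me3 itself was found there at 55.2% and 64.4%, against 77.7% and 85.7%. Of the H3K27ac only peaks, 3.58% and 6.42% met an H3K4me3 peak in those lists, and 58.4% and 78.9% an H3K27ac peak, against 88.9% and 93.7% of the two-mark H3K27ac peaks. A region without the other mark in GD15M_LM therefore mostly lacked it in circular muscle too, and H3K27ac only peaks of GD15M_LM were found more often in CD15M_CM than in GD15M_CM. The lists of circular muscle held more H3K27ac peaks (79877 and 82037), so their sizes enter these shares.

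The X chromosome differed from the autosomes in the share of H3K27ac with H3K4me3. Of 1012 H3K27ac peaks on X, 70.5% overlapped H3K4me3, beside 46.1% over the whole list, while 66.5% of 849 H3K4me3 peaks overlapped H3K27ac, beside 69.6%.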

How the data were processed

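The reads were mapped to Sus scrofa 11.1 by the authors with BWA 0.7.17-r1188. SAMtools 1.9 and Picard 2.8.3 served to take out duplicates and poorly mapped reads. Both replicates were then pooled, and peaks were called with MACS2 2.2.6 against IgG (versions from the submitters' processing notes). The deposited fold enrichment is a ratio over IgG and the deposited −log10 p is that of the peak call. How the libraries were scaled is not given in the sources used here. The heading of the −log10 p column was unreadable, and it was identified from the same column of the study's own peak table. A further column, probably −log10 q, was not used.

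Peaks of GD15M_LM were classed by an overlap of at least 1 bp. Genes were the 28210 RefSeq genes of Sscrofa11.1 on chromosomes 1 to 18, X and Y, without strand, so 3 kb around either end of a gene replaced the start site, and the peak of highest fold enrichment in the window stood for the gene. Percentiles are ranks within a list. Of 370 listed genes 343 were placed by symbol. The members, gene lists and rules for named genes were chosen with earlier results of these data known. Named were the 8 genes farthest apart in each direction, the 8 highest with a single mark, the longest and strongest peaks, the list members farthest apart or without a mark, and the genes the study discusses. Other list members were named after their values were seen. Alternatives were a stricter list (fold enrichment from 5 and −log10 p from 10 upwards), equal numbers of peaks, 50% overlap, joined peaks, a distance of 1 kb, a window of 1 kb and ranking by −log10 p. No test across samples was made. Overlap, window and rank code was tested on simulated data. Python 3.11.15, pandas 2.3.3, NumPy 2.4.6, SciPy 1.17.1 and Matplotlib 3.10.9 were used. Promoter sequences were not analysed here. Some genes that meet these rules are not reported here.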

Additional observations from a re-analysis of the deposited data

How the results depend on the processing

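No paired analysis was possible because each list pools both gilts and carries no replicate number, and for the same reason no replicate could be left out. Both rank correlations stayed within 0.05 under every alternative run. The share of H3K4me3 peaks with H3K27ac, 69.6%, was 50.3% with the stricter list, 58.3% with equal numbers of peaks, 53.2% with 50% overlap, 82.4% with joined peaks and 78.7% with 1 kb allowed. The share of H3K27ac peaks with H3K4me3, 46.1%, was 77.1%, 62.3%, 41.0%, 48.6% and 50.3% in the same order. Of H3K4me3 only peaks, 26.1% lay near a gene end with a 1 kb window and 76.1% with the stricter list, and of H3K27ac only peaks 7.24% with a 1 kb window. Genes with both marks made up 62.9% with a 1 kb window, 40.2% with the stricter list, 62.1% with equal numbers and 70.3% with the whole gene and 3 kb, a window chosen after seeing the data. Genes at least 50 points higher for H3K4me3 numbered 151 by −log10 p and 1277 with equal numbers of peaks. Those higher for H3K27ac numbered 15 with equal numbers, 366 with percentiles among genes with both marks and 27 where the peaks overlap, a choice also made after seeing the data. Equal numbers of peaks drop the weaker H3K27ac peaks, which lowers the percentile of those left, and for the other changes the cause was not tested. Depth per peak is unknown from the lists.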

Other observations

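Transfer RNA genes carried H3K4me3 without H3K27ac more often than protein-coding genes did. Of 448 transfer RNA genes 181 (40.4%) had both marks in the window, 52 (11.6%) had H3K4me3 only, with a median percentile of 60.4, and 9 (2.01%) had H3K27ac only. Many of these genes lie in clusters and beside other genes and share peaks, so they are not independent. Of 307 microRNA genes, 81 (26.4%) had both marks, 19 (6.19%) H3K4me3 only and 25 (8.14%) H3K27ac only. Of 2307 pseudogenes 89.1% had neither mark, and the 157 with both marks had median percentiles of 71.7 for H3K4me3 and 77.2 for H3K27ac. These values were looked at after those of the protein-coding genes.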
